A study of Mus musculus with 24 samples.

Results

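The 10 genes described here are Ddit4, Ddit4l, Sesn1, Sesn2, Sesn3, Tsc1, Tsc2, Deptor, Prkaa2 and Eif4ebp1. They encode proteins that restrain mTORC1 or sense energy and nutrient stress, except Eif4ebp1, whose product is a target of mTORC1. They were chosen by gene symbol from knowledge of the pathway, with earlier results of these data known. Of these genes, 10 of 10 were found among the 55487 genes listed, with 1 gene ID each. RNA came from C2C12 cells, a wild-type mouse skeletal muscle line, which were differentiated from myoblasts to myotubes under 5 % O2 in all groups and are labelled as day 5. In 4 groups of 6 biological replicates, myotubes were kept for 2 h under 5 % or 1 % O2 in the gas phase and were either left unstimulated (5 % CTRL, 1 % CTRL) or stimulated electrically after that exposure to make them contract (5 % STIM, 1 % STIM). In the paper, cultures received fresh medium on either side of the stimulation, and the RNA is described as taken immediately after it. Whether unstimulated cultures received the same medium changes is not stated. The part of fresh medium in the differences with stimulation was not tested. A single cell line in culture was the model throughout, and the RNA is that of whole cultures.

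mTORC1 is the kinase complex that couples growth factors, amino acids and energy to protein synthesis, and it phosphorylates S6 kinases and the 4E-BP proteins that hold back cap-dependent translation. Upstream of it stand the TSC complex, which switches off the activator Rheb, and the Rag GTPases, which bring mTORC1 to the lysosome when amino acids are present. REDD proteins act through TSC, sestrins act on the GATOR proteins that control the Rags, DEPTOR binds mTOR itself, and AMPK, the energy sensor, phosphorylates TSC2 and raptor. In skeletal muscle, REDD1 is known as a transcript raised by hypoxia, glucocorticoids and fasting, and AMPK is known as a kinase activated by contraction.

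The promoters of 3 members are shown because, among the members, Ddit4 had the largest change with O2 at rest, Sesn2 with stimulation under 5 % O2 and Ddit4l with stimulation under 1 % O2. Each window runs from 250 bases before to 50 bases after the RefSeq start site (GRCm38.p6), 5′ to 3′ on the strand of the gene, with any core bound by hypoxia-inducible factors in capitals (ACGTG or GCGTG, or CACGT or CACGC where the core is on the opposite strand). The Ddit4 window lies at chr10:59951721-59952020 on the minus strand, the Ddit4l window at chr3:137623422-137623721 on the plus strand and the Sesn2 window at chr4:132510407-132510706 on the minus strand. The Ddit4l window lies wholly inside the GENCODE span of its gene (137621612 to 137628333), so its RefSeq start is downstream of the GENCODE start.
Ddit4: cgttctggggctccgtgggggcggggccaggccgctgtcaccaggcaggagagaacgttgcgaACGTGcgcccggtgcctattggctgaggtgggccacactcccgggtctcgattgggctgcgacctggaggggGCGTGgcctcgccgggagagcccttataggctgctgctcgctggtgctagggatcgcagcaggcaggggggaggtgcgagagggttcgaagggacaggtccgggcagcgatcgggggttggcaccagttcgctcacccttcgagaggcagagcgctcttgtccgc
Ddit4l: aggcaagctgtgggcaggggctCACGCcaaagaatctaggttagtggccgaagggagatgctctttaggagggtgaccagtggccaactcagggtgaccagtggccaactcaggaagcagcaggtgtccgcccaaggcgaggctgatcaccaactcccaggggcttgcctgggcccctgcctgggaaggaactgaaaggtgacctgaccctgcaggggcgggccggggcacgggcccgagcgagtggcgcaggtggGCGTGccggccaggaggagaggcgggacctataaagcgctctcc
Sesn2: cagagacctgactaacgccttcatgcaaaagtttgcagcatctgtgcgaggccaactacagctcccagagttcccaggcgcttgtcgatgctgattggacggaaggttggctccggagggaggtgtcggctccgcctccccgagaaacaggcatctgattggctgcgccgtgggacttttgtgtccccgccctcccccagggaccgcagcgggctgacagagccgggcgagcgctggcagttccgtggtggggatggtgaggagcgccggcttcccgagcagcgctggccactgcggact
The Ddit4 window held ACGTG at bases -187 to -183 and GCGTG at bases -115 to -111, counted from the start site. The Ddit4l window held GCGTG on the opposite strand at bases -228 to -224 and on the gene's own strand at bases 7 to 11, and the Sesn2 window held no core. Windows were at hand for 8 of the 10 members (Sesn1 had 2). Ddit4 alone held ACGTG, which 19.6 % of 32851 mouse windows hold. At least 1 core of either kind is held by 43.8 % of these windows. GCGTG, held by 32.4 % of windows, was found once each in Tsc1, Tsc2 and Prkaa2, at both strands of the second Sesn1 window, and not in the first Sesn1 window or in Sesn3. None of the member windows held TGACGTCA, TGACTCA or TGATGCAA, the sites of CREB, AP-1 and C/EBP-ATF dimers, which were searched on both strands and are held by 1.79 %, 5.2 % and 0.895 % of windows. These matches describe letters and do not show binding.

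The libraries held between 26541858 and 28173745 reads. Myotube markers were abundant (summed normalized count of 9 markers between 379652 and 490073), while summed counts of 5 markers of leukocytes, endothelium, adipocytes, epithelium and glia lay between 6.28 and 33.6. Of the O2 checks, Slc2a1, the main glucose transporter induced by hypoxia, rose 4.58-fold and Bnip3, a mitophagy receptor, rose 2.29-fold in 1 % CTRL over 5 % CTRL. Of the stimulation checks, the immediate early gene Fos did not pass the test in 5 % STIM against 5 % CTRL (log2 fold change of -0.16, adjusted p = 0.403 by limma), nor did Egr1 (-0.27, adjusted p = 0.0775 by limma). Vegfa was a further O2 check. Of these 5 genes together, 3 rose and 1 fell in 1 % CTRL against 5 % CTRL. In 1 % STIM against 5 % STIM, 2 rose and 2 fell, so the O2 checks did not all rise there. With stimulation, 1 rose and 1 fell under 5 % O2, and 0 rose and 3 fell under 1 % O2. One library, 1 % CTRL replicate 1, stood apart: its log2 values rose with exon length by 0.0945 per log2 of length, against -0.0367 to -0.0125 in the other 5 of its group, and it was the highest or lowest of its group for 9 of the 10 members. The next steepest slope was 0.055, in 1 % STIM replicate 3, which was highest or lowest for 7 members.

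Under 1 % O2 at rest, Ddit4, Ddit4l, Sesn1 and Sesn2 rose, Tsc1, Deptor and Eif4ebp1 fell, and Sesn3, Tsc2 and Prkaa2 did not pass the test. These are 7 of 10 members called at an adjusted p under 0.05, where 59.9 % of the 14541 genes tested were called (29.4 % higher, 30.5 % lower). The median absolute log2 change was 0.246 over the members and 0.234 over all genes tested. With stimulation under 5 % O2, Ddit4, Sesn1, Sesn2 and Eif4ebp1 rose and no member fell, so that 4 of 10 were called against 21.4 % of all genes (9.44 % higher, 12 % lower). Here the median absolute log2 change was 0.187 over the members and 0.096 over all genes. All 10 members passed the filter on low values, which asked for a normalized count of 10 or more in 6 or more libraries, and did so in each group. The comparisons share groups, so their counts are not independent. Counts refer to whole cultures, in which fewer cells of a type and less RNA per cell cannot be told apart.

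In stimulated myotubes, 1 % O2 raised Ddit4, Ddit4l, Sesn1 and Sesn2 over 5 % STIM and lowered Deptor and Eif4ebp1, which makes 6 of 10 called against 57.4 % of all genes (29 % higher, 28.4 % lower). Stimulation under 1 % O2 raised Ddit4l, Sesn1, Sesn2, Sesn3, Tsc1 and Deptor over 1 % CTRL, and 6 of 10 were called against 22.3 % of all genes (11.5 % higher, 10.8 % lower). Groups of 6 libraries did not overlap for 4, 4, 5 and 3 members in these comparisons, in the order O2 at rest, stimulation under 5 % O2, O2 with stimulation and stimulation under 1 % O2, where 38.2 %, 11.1 %, 37.3 % and 11.2 % of all genes did not overlap. Rescaling each library to the same total moved the split of all calls at rest from 49 % to 62.7 % higher, and the members' split from 4 higher and 3 lower to 5 and 3. It moved the split of all calls from 44 % to 62.1 % higher with stimulation under 5 % O2, from 50.4 % to 63.2 % for O2 with stimulation and from 51.4 % to 62.4 % with stimulation under 1 % O2. There the members' splits were 4 higher and 0 lower, 5 and 2, and 7 and 0. Without the 2 libraries of steepest length slope, 7, 4, 6 and 7 members were called in the same 4 comparisons. Markers moved as well: 7 of 9 myotube markers fell and none rose in 1 % CTRL against 5 % CTRL, where their sum ranged from 389321 to 424526 against 444759 to 490073. With 1 % O2 in stimulated myotubes 6 of 9 fell, with stimulation 3 of 9 fell under 5 % O2 and 2 of 9 under 1 % O2, and none rose. Of all genes, 30.5 % fell with O2 at rest and 28.4 % with O2 in stimulated myotubes. With stimulation 12 % of all genes fell under 5 % O2 and 10.8 % under 1 % O2. The summed count of 7 myoblast markers was 3256 to 3596 in 5 % CTRL, 3642 to 5587 in 1 % CTRL, 3478 to 4073 in 5 % STIM, and 3890 to 4711 in 1 % STIM, so that at rest it was higher under 1 % O2 without overlap, with 3 of its genes higher and 3 lower. The part of these markers in the results was not tested.

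**Figure D1:**
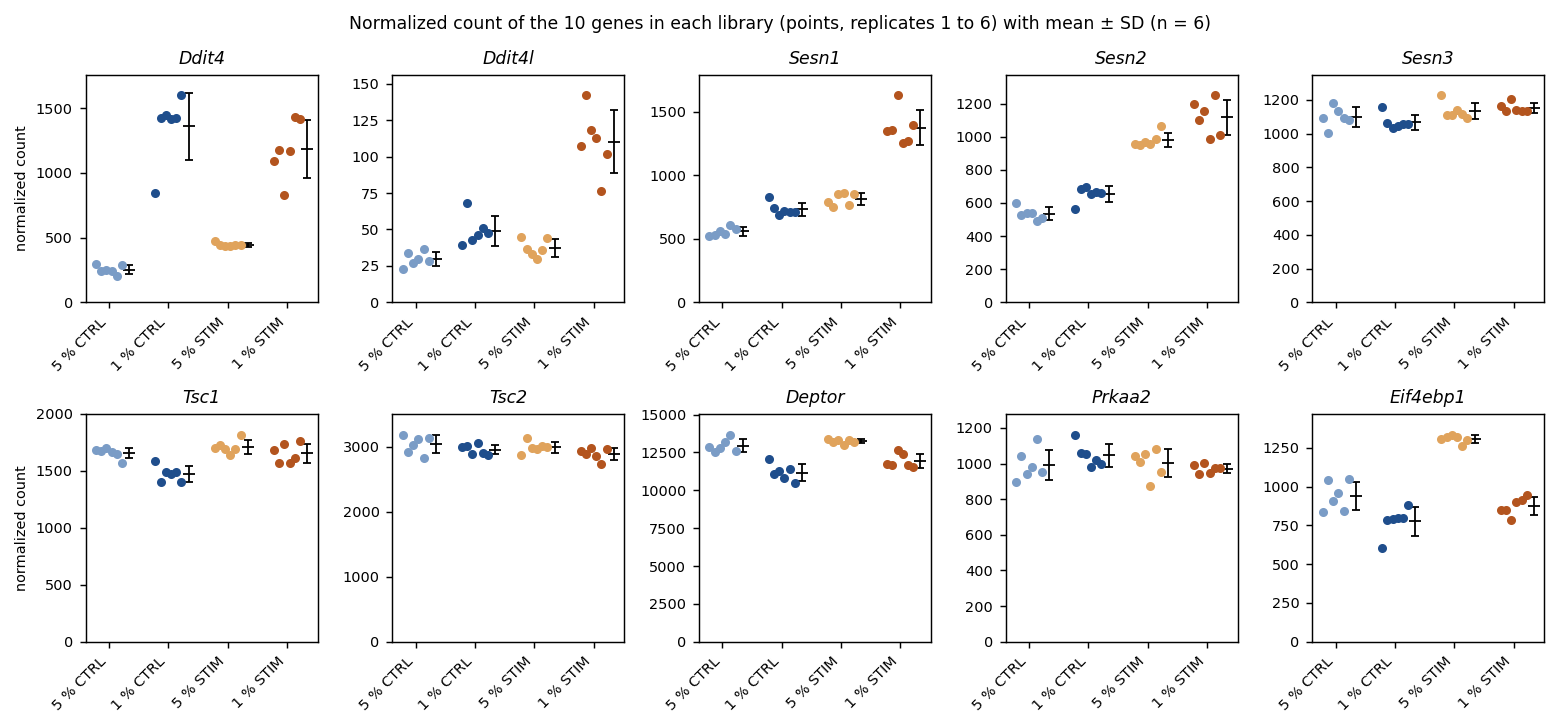
Normalized count (vertical axis, from 0) of each of the 10 genes in the 6 libraries of each group (points, in the order of replicate number), with mean ± SD beside them. Ddit4 was lowest in 5 % CTRL (207 to 295), Sesn1 was highest in 1 % STIM (1255.7 to 1628.9), and the groups of Tsc2 and Prkaa2 overlapped throughout.

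**Figure D2:**
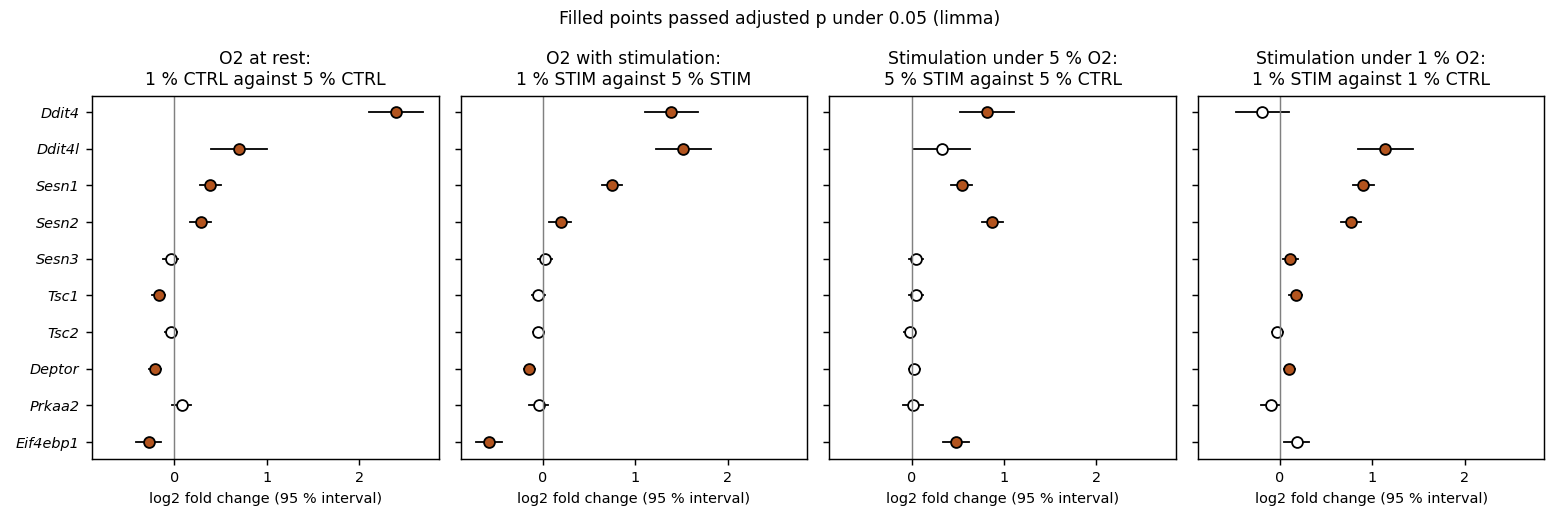
Log2 fold change (horizontal axis) of each gene in the 4 comparisons along one factor, with 95 % intervals from limma, filled where adjusted p was under 0.05. Ddit4 shows the largest change at rest (2.40) and Sesn2 the largest with stimulation under 5 % O2 (0.87).

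Ddit4 encodes REDD1, which releases TSC2 from 14-3-3 proteins and thereby damps mTORC1. Its gene (ENSMUSG00000020108) lies on chromosome 10 at 59949669 to 59951834 on the minus strand (GRCm38). The normalized count was 207, 244 and 295 (lowest, median and highest of 6) in 5 % CTRL and 844, 1422.1 and 1600.5 in 1 % CTRL. Every 1 % CTRL library was above every 5 % CTRL library, and 844 belonged to 1 % CTRL replicate 1. The mean rose from 253 ± 33.9 to 1358.9 ± 262 (SD, n = 6). The log2 fold change was 2.40 ± 0.14 (SE, adjusted p = 1.47e-12 by limma), and 2.34 to 2.53 with any 1 library left out.

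With stimulation under 5 % O2, Ddit4 was at 432, 442 and 472 in 5 % STIM, again above every 5 % CTRL library. The log2 fold change was 0.82 ± 0.14 (SE, adjusted p = 0.000145 by limma). In 1 % STIM the values were 826, 1174.2 and 1430.6, which lay above all 5 % STIM libraries (log2 fold change of 1.39 ± 0.14, adjusted p = 1.62e-08) and overlapped with those of 1 % CTRL. Stimulation under 1 % O2 gave -0.19 ± 0.14 on the log2 scale (95 % interval -0.48 to 0.10, adjusted p = 0.375), without a call. Leaving out 1 % CTRL replicate 1 gave -0.32 with an adjusted p of 0.034, and leaving out 1 % STIM replicate 3 as well gave -0.22 with an adjusted p of 0.0434. Over the 24 libraries left out in turn the adjusted p ranged from 0.034 to 0.706. The response to stimulation was smaller under 1 % than under 5 % O2 by 1.01 ± 0.20 on the log2 scale (interaction of -1.01, adjusted p = 0.00145 by limma).

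The O2 targets used to check the labels had interactions of the same sign. These were -0.52 for Slc2a1 (adjusted p = 4.02e-10), -0.59 for Vegfa, the angiogenic growth factor (adjusted p = 1.82e-11), and -0.40 for Bnip3 (adjusted p = 0.00372). With stimulation under 5 % O2, Vegfa rose by 0.18 on the log2 scale (adjusted p = 6.14e-05), as Ddit4 also rose, while Slc2a1 fell by 0.11 (adjusted p = 0.0175) and Bnip3 did not pass (-0.03, adjusted p = 0.788). Whether Ddit4 differed from these genes was not tested.

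Ddit4l encodes REDD2, a muscle-enriched paralog that also inhibits mTORC1. The gene (ENSMUSG00000046818) lies on chromosome 3 at 137621612 to 137628333 on the plus strand and was the member of lowest level. Values were 22.8, 29 and 36.3 in 5 % CTRL, 39.3, 46.8 and 68.1 in 1 % CTRL, 29.6, 36.1 and 44.9 in 5 % STIM, and 76.1, 110 and 142 in 1 % STIM. Every 1 % STIM library lay above every library of the other groups, while 5 % CTRL and 5 % STIM overlapped.

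By the limma estimate, Ddit4l rose 1.63-fold with 1 % O2 at rest (log2 fold change of 0.70 ± 0.15, adjusted p = 0.000111) and 2.21-fold with stimulation under 1 % O2 (1.14 ± 0.15, adjusted p = 2.29e-07). Stimulation under 5 % O2 gave 0.33 ± 0.15 (adjusted p = 0.118), which did not pass. The interaction was 0.82 ± 0.21 (95 % interval 0.39 to 1.24, adjusted p = 0.00826 by limma), and it passed with each of 24 libraries left out in turn (0.74 to 0.92). Its sign was opposite to that of Ddit4.

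Sestrins are stress-inducible proteins that bind GATOR2 and restrain Rag signalling, and Sesn2 also senses leucine. Sesn1 (ENSMUSG00000038332, chromosome 10, 41809935 to 41908424, plus strand) was at 523, 550 and 611 in 5 % CTRL, 685, 714 and 829 in 1 % CTRL, 754, 823 and 862 in 5 % STIM, and 1255.7, 1352.1 and 1628.9 in 1 % STIM. Both single exposures lay above 5 % CTRL without overlap, and 1 % STIM lay above all other libraries. The log2 fold changes were 0.39 ± 0.055 for O2 at rest (adjusted p = 1.52e-07), 0.55 ± 0.055 for stimulation under 5 % O2 (adjusted p = 1.4e-09), 0.75 ± 0.055 for O2 with stimulation (adjusted p = 7.66e-14) and 0.90 ± 0.055 for stimulation under 1 % O2 (adjusted p = 4.54e-15). The interaction was 0.36 ± 0.077 (adjusted p = 0.00167 by limma), so the response to stimulation was larger under 1 % O2.

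Sesn2 (ENSMUSG00000028893, chromosome 4, 132492032 to 132510501, minus strand) followed stimulation more than O2. Its values were 492, 533 and 602 in 5 % CTRL, 563, 663 and 694 in 1 % CTRL, 952, 960 and 1061.8 in 5 % STIM, and 985, 1127.2 and 1249.6 in 1 % STIM. All stimulated libraries lay above all unstimulated ones, and the value of 563, in 1 % CTRL replicate 1, was the only one of its group within the range of 5 % CTRL. Stimulation raised Sesn2 by 0.87 ± 0.056 under 5 % O2 (adjusted p = 2.37e-14) and by 0.77 ± 0.056 under 1 % O2 (adjusted p = 4.59e-13) on the log2 scale. It rose with 1 % O2 by 0.29 ± 0.056 at rest (adjusted p = 3.58e-05) and by 0.19 ± 0.056 in stimulated myotubes (adjusted p = 0.00478). The interaction was -0.10 (95 % interval -0.26 to 0.06, adjusted p = 0.448).

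Sesn3 (ENSMUSG00000032009, chromosome 9, 14275067 to 14333101, plus strand) stayed between 1002.8 and 1227.6 in the 24 libraries. It passed the test in stimulation under 1 % O2 (log2 fold change of 0.11 ± 0.038, adjusted p = 0.0346), a call lost with 7 of the 24 libraries left out in turn (adjusted p up to 0.0883) and without the filter on low values (adjusted p = 0.0771). For O2 at rest the interval was -0.12 to 0.04, and for stimulation under 5 % O2 it was -0.03 to 0.12. The highest values of 2 of its groups belonged to replicate 1, with 1156.7 in 1 % CTRL and 1227.6 in 5 % STIM.

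Tsc1 and Tsc2 encode hamartin, which stabilises the complex, and tuberin, its GTPase-activating subunit for Rheb. Tsc1 (ENSMUSG00000026812, chromosome 2, 28641228 to 28691167, plus strand) was at 1573.1, 1666.3 and 1702.4 in 5 % CTRL, 1398.7, 1479.1 and 1589.5 in 1 % CTRL, 1638.6, 1696.2 and 1819.3 in 5 % STIM, and 1569.2, 1647.5 and 1761.5 in 1 % STIM. The highest library of 1 % CTRL, replicate 1, reached into the range of 5 % CTRL. Tsc1 fell by 0.17 on the log2 scale with 1 % O2 at rest (SE 0.036, adjusted p = 9.92e-05) and rose by the same 0.17 ± 0.036 with stimulation under 1 % O2 (adjusted p = 0.000503). The means of 1 % STIM and 5 % CTRL were 1655.6 ± 82.7 and 1657.7 ± 45.1 (95 % interval of the log2 difference -0.08 to 0.07). The interaction was 0.12 ± 0.051 (adjusted p = 0.12) and was called without 1 % CTRL replicate 1 (0.15, adjusted p = 0.0375).

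Tsc2 (ENSMUSG00000002496, chromosome 17, 24595816 to 24632630, minus strand) ranged from 2734.1 to 3186.9 and passed no test. Its log2 changes were -0.037 for O2 at rest (95 % interval -0.10 to 0.03), -0.019 for stimulation under 5 % O2 (-0.08 to 0.04), -0.05 for O2 with stimulation (-0.11 to 0.01) and -0.032 for stimulation under 1 % O2 (-0.09 to 0.03). The comparison nearest to a call was 1 % STIM against 5 % CTRL, with -0.068 (-0.13 to -0.01, adjusted p = 0.0565). That difference was called with the length slope as a covariate (adjusted p = 0.0429), with 4 of 24 libraries left out in turn (adjusted p of 0.014 without 5 % CTRL replicate 5 and 0.0405 without 1 % STIM replicate 3, among them) and without the 2 libraries of steepest slope (adjusted p = 0.0353), whereas rescaling libraries to equal totals gave 0.033 (adjusted p = 0.337). Exons of the antisense gene Pkd1 overlap 7.2 % of the exon bases of Tsc2, and the counting is not stated to use strand, so a small share of its reads may be those of Pkd1.

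Deptor binds mTOR directly and inhibits it, and it had the highest level of the members. The gene (ENSMUSG00000022419, chromosome 15, 55112317 to 55259271, plus strand) was at 12559, 12841.3 and 13684.2 in 5 % CTRL, 10484, 11154.1 and 12063.5 in 1 % CTRL, 12993.1, 13261.2 and 13368.8 in 5 % STIM, and 11560.3, 11705.6 and 12675.3 in 1 % STIM. Each 1 % group lay below its 5 % counterpart without overlap. Deptor fell by 0.21 on the log2 scale with 1 % O2 at rest (SE 0.03, adjusted p = 2.15e-07) and by 0.15 with 1 % O2 in stimulated myotubes (SE 0.03, adjusted p = 8.45e-05). After rescaling libraries to equal totals the changes were -0.13 and -0.078, both still called. Stimulation under 1 % O2 raised it by 0.098 ± 0.03 (adjusted p = 0.0175), a call lost without 1 % CTRL replicate 6 or 1 % STIM replicate 3 (log2 fold change of 0.08 each) and when only the groups compared were fitted (adjusted p = 0.0537). With stimulation under 5 % O2 the change was 0.032 (adjusted p = 0.511), called only with the length slope as a covariate among the alternatives run (0.069, adjusted p = 0.0253). The antisense gene Gm9920 overlaps 3.41 % of its exon bases.

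Prkaa2 encodes the α2 catalytic subunit of AMPK, the form that predominates in adult muscle. The gene (ENSMUSG00000028518, chromosome 4, 105029874 to 105109890, minus strand) ranged from 876 to 1162.6 and passed no test. For stimulation under 5 % O2 the log2 change was 0.015 (95 % interval -0.09 to 0.12), and for O2 at rest it was 0.077 (-0.03 to 0.18, adjusted p = 0.194). The latter was called after rescaling libraries to equal totals (0.16, adjusted p = 0.00819) and without 5 % CTRL replicate 5 (0.12, adjusted p = 0.0376).

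Eif4ebp1 encodes 4E-BP1, the repressor of eIF4E that mTORC1 inactivates. The gene (ENSMUSG00000031490, chromosome 8, 27260329 to 27276674, plus strand) was at 836, 934 and 1048.7 in 5 % CTRL, 602, 796 and 882 in 1 % CTRL, 1262.6, 1312.9 and 1335.7 in 5 % STIM, and 787, 876 and 944 in 1 % STIM. The 5 % STIM libraries lay above all other libraries, and 602 belonged to 1 % CTRL replicate 1. It rose by 0.48 ± 0.067 on the log2 scale with stimulation under 5 % O2 (adjusted p = 3.84e-06), fell by 0.28 with O2 at rest (SE 0.067, adjusted p = 0.000837) and fell by 0.58 with O2 in stimulated myotubes (SE 0.067, adjusted p = 2.33e-08). Stimulation under 1 % O2 gave 0.18 ± 0.067 (adjusted p = 0.0618), which did not pass although 6 of 6 libraries lay above the 1 % CTRL mean. It was called without 1 % CTRL replicate 6 (adjusted p = 0.0202) or 1 % STIM replicate 3 (adjusted p = 0.0342). It was also called with all libraries when the replicate block (adjusted p = 0.0203), rescaled totals (0.0467), DESeq2 (0.0462) or the length slope as a covariate (0.21 on the log2 scale, adjusted p = 2.95e-05) was used. The interaction was -0.31 ± 0.095 (adjusted p = 0.0361 by limma). Its adjusted p ranged from 0.000246 to 0.067 with 1 library left out, and the call was lost for 15 of the 24 libraries.

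The interaction passed for 4 of 10 members, 2 positive (Ddit4l, Sesn1) and 2 negative (Ddit4, Eif4ebp1), where 11.3 % of all genes were called (5.88 % positive, 5.43 % negative). The 2 responses to stimulation rest on separate libraries. Under 5 % O2, Sesn2 and Ddit4 had the largest changes (0.87 and 0.82), and under 1 % O2 Ddit4l and Sesn1 had (1.14 and 0.90), with Ddit4 at -0.19.

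**Figure D3:**
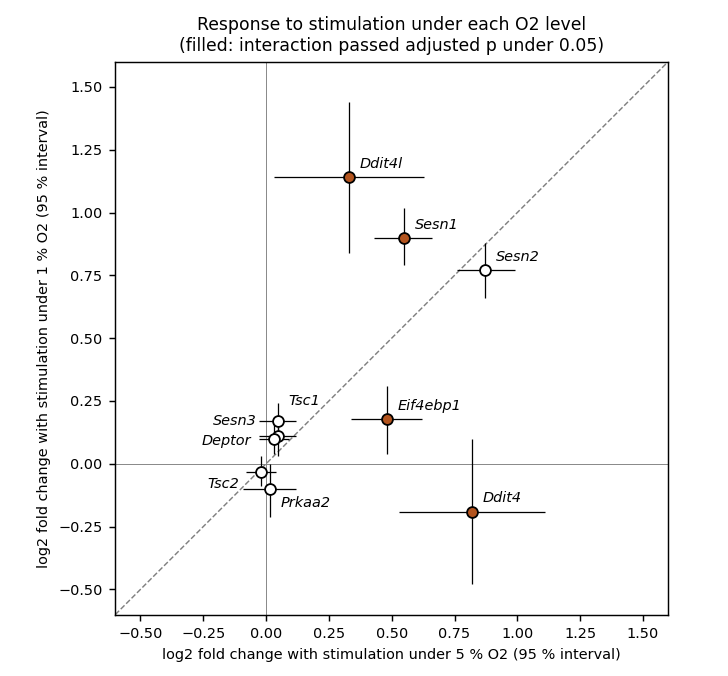
Log2 fold change with stimulation under 5 % O2 (horizontal axis) against that under 1 % O2 (vertical axis) for each gene, with 95 % intervals, filled where the interaction had an adjusted p under 0.05. The dashed line marks equal responses. Ddit4l and Sesn1 lie above it, Ddit4 and Eif4ebp1 below it.

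With both exposures combined (1 % STIM against 5 % CTRL), 5 of 10 members were called against 58.9 % of all genes. On the log2 scale Ddit4 rose by 2.21, Ddit4l by 1.85 and Sesn2 by 1.06, and Sesn1 rose 2.46-fold (4 members higher, 29.2 % of all genes), and Deptor fell by 0.12 (1 lower, 29.7 % of all genes). Rescaling each library to the same total moved the median log2 change of all genes from 0.002 to 0.103 here and the split of all calls from 49.6 % to 67.4 % higher. It left 6 members higher and none lower, with Deptor at -0.015 (adjusted p = 0.671) and Tsc1 at 0.099 (adjusted p = 0.0128). The length slope as a covariate gave 4 members higher and 3 lower instead, with Tsc2 at -0.068 (adjusted p = 0.0429) and Eif4ebp1 at -0.11 (adjusted p = 0.00725) called beside Deptor. Between the single exposures (5 % STIM against 1 % CTRL), 7 members were called against 60.4 % of all genes. Stimulation alone left Ddit4 lower than 1 % O2 alone by 1.58 on the log2 scale and Ddit4l lower by 0.38 (2 members, 30.2 % of all genes). It left Eif4ebp1 higher by 0.76, Sesn2 by 0.58, Deptor by 0.25, Tsc1 by 0.22 and Sesn1 by 0.15 (5 members, 30.2 % of all genes). The Ddit4l difference was lost without the filter (adjusted p = 0.0516) and without 1 % CTRL replicate 2, 5 % STIM replicate 3 or 5 % STIM replicate 4 (adjusted p up to 0.104). Sesn3 did not pass (0.085, adjusted p = 0.0544), and was called with 4 of 24 libraries left out in turn (1 % CTRL replicate 1 among them, with 0.11 and an adjusted p of 0.0139), with the length covariate (adjusted p = 0.0107) and with the replicate block (adjusted p = 0.0466). The Sesn1 difference was lost with rescaled libraries (adjusted p = 0.1) and with limma voom (adjusted p = 0.0563).

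Levels of different genes are compared per kb of exon. In 5 % CTRL the order of mean level (normalized count per kb) was Deptor at 1459.8 ± 48.5, Eif4ebp1 at 428 ± 42, Tsc2 at 315 ± 14.4, Sesn2 at 154 ± 10.9, Ddit4 at 144 ± 19.3, Sesn1 at 140 ± 8.34, Tsc1 at 140 ± 3.81, Prkaa2 at 125 ± 10.8, Sesn3 at 71.9 ± 3.9 and Ddit4l at 10.2 ± 1.64 (SD, n = 6). From Sesn2 to Tsc1, each gene differed from its neighbour in this order by less than the larger of both SDs. In 1 % CTRL Ddit4 was second in level, at 774 ± 149 per kb, and Eif4ebp1 next at 354 ± 42.3.

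Members that are paralogs were also compared within each library, where a ratio does not depend on how libraries are scaled. Tests were two-sided exact permutation tests of the log2 ratio per kb over 924 splits of 6 against 6 libraries, adjusted over 24 tests, and 0.00216 was the smallest p they allow. Ddit4l made up 6.74 ± 1.8 % of the summed level of Ddit4 and Ddit4l in 5 % CTRL, 2.18 ± 0.476 % in 1 % CTRL and 4.81 ± 0.642 % in 5 % STIM, against 5.51 ± 1.74 % in 1 % STIM. Its share was lower in 1 % CTRL than in 5 % CTRL (log2 ratio of -1.68, adjusted p = 0.00472 by the exact test) and higher in 1 % STIM than in 1 % CTRL (1.35, adjusted p = 0.00472 by the exact test). The fall from 5 % CTRL to 5 % STIM had an adjusted p of 0.0455 by the exact test and was lost for 10 of 24 libraries left out in turn.

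Sesn3 made up 19.6 ± 0.753 % of the summed level of the 3 sestrins in 5 % CTRL, 15.8 ± 0.597 % in 1 % CTRL and 13.3 ± 0.803 % in 5 % STIM, against 10.2 ± 0.504 % in 1 % STIM, and neighbouring groups in this order did not overlap. Each of the 4 differences along one factor had an adjusted p of 0.00472 by the exact test. Sesn2 made up 50.3 ± 1.34 % in 5 % STIM and between 42.1 % and 43.3 % on average in the other groups. It was higher in 5 % STIM than in 5 % CTRL (log2 ratio of 0.48) and lower in 1 % STIM than in 5 % STIM (-0.41), each with an adjusted p of 0.00472 by the exact test. Stimulation under 1 % O2 gave a log2 ratio of 0.045 (adjusted p = 0.744 by the exact test). Without division by exon length that value was 0.28, with an adjusted p of 0.00945, since the long Sesn3 transcripts then weigh more.

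Tsc1 made up 28.8 ± 1.02 % of the summed Tsc1 and Tsc2 level in 1 % CTRL and 30.8 % to 31.7 % on average in the other groups. The rise from 1 % CTRL to 1 % STIM (log2 ratio of 0.20) had an adjusted p of 0.00472 by the exact test. The fall from 5 % CTRL to 1 % CTRL (-0.14) had an adjusted p of 0.0334 by the exact test and was lost for 6 of 24 libraries left out in turn. Prkaa2 was the minor of both catalytic subunits of AMPK, with 14.9 ± 0.914 % of the Prkaa1 and Prkaa2 level in 5 % CTRL and 17.2 ± 1.08 % in 5 % STIM (log2 ratio of 0.25, adjusted p = 0.013 by the exact test). Prkaa1 itself fell by 0.23 with stimulation under 5 % O2 (SE 0.033, adjusted p = 2.32e-06 by limma), while Prkaa2 passed no test. The Prkaa2 share was lower in 1 % STIM than in 5 % STIM (-0.17, adjusted p = 0.016 by the exact test). It was higher in 1 % CTRL than in 5 % CTRL (0.12, adjusted p = 0.045 by the exact test), which was lost for 9 of 24 libraries left out in turn, 1 % CTRL replicate 1 among them (adjusted p = 0.0877).

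Eif4ebp1 reached 49 ± 0.422 % of the summed Eif4ebp1 and Eif4ebp2 level in 5 % STIM, above 40.8 ± 2.87 % in 5 % CTRL (log2 ratio of 0.48) and 40.3 ± 1.98 % in 1 % STIM (-0.51 against 5 % STIM), each with an adjusted p of 0.00472 by the exact test. The changes for O2 at rest (-0.24) and for stimulation under 1 % O2 (0.20) both had an adjusted p of 0.0577 by the exact test, and the latter was called without 1 % CTRL replicate 6 (0.24, adjusted p = 0.026) or 1 % STIM replicate 3 (0.24, adjusted p = 0.0312). Eif4ebp2 itself fell by 0.074 on the log2 scale in 1 % STIM against 5 % STIM (adjusted p = 0.0258 by limma) and passed none of the other 3 tests along one factor, with log2 fold changes of -0.041, 0.006 and -0.027.

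**Figure D4:**
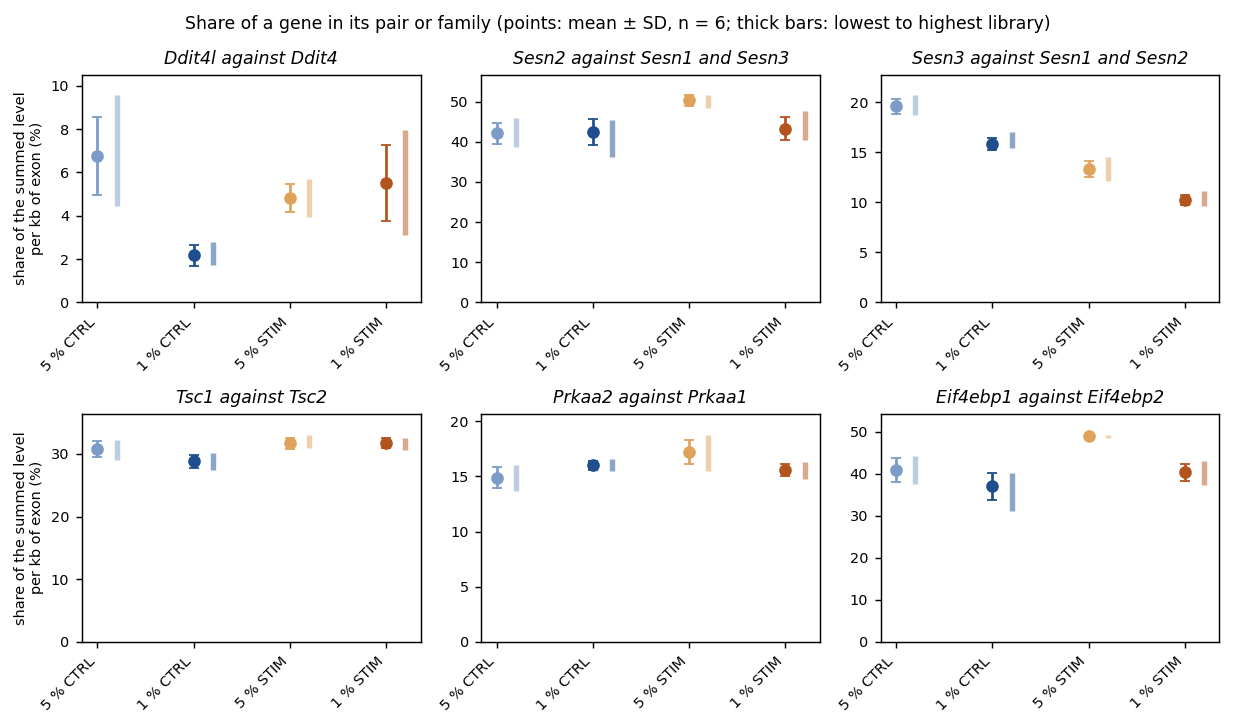
Share of a gene in the summed level of its pair or family (vertical axis, percent of normalized counts per kb of exon, from 0), as mean ± SD of 6 libraries with the range from lowest to highest library as thick bars. The share of Sesn3 falls from 19.6 % in 5 % CTRL to 10.2 % in 1 % STIM, and that of Eif4ebp1 is highest in 5 % STIM at 49 %.

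Genes around the members were taken from 6 lists written from knowledge of the pathway, with earlier results of these data known. Over all genes tested, 29.4 % rose and 30.5 % fell with O2 at rest. These shares were 9.44 % and 12 % with stimulation under 5 % O2. They were 29 % and 28.4 % with O2 in stimulated myotubes, and 11.5 % and 10.8 % with stimulation under 1 % O2. Of 16 tested genes for the mTORC1 complex, its activators and substrates, 3 rose and 6 fell with 1 % O2 at rest, and 1 rose and 1 fell with stimulation under 5 % O2. The median log2 changes were -0.041 and -0.006. Ulk1, the autophagy kinase that mTORC1 inhibits, rose with 1 % O2 by 0.79 ± 0.039 at rest (adjusted p = 1.47e-18) and by 0.68 ± 0.039 in stimulated myotubes (adjusted p = 1.38e-16). Mlst8, a subunit shared by both mTOR complexes, fell by 0.44 and 0.33 in the same comparisons (adjusted p = 1.38e-10 and 5.6e-08). Rheb, the activator downstream of TSC, also fell there, by 0.23 and 0.29 (adjusted p = 5.06e-06 and 8.03e-08 by limma). It rose with stimulation by 0.21 under 5 % O2 (adjusted p = 6.87e-05) and by 0.15 under 1 % O2 (adjusted p = 0.00303 by limma).

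Of 22 tested genes for Rag GTPases and amino acid sensing, 10 rose and 5 fell with O2 at rest, and 5 rose and 2 fell with stimulation under 5 % O2, with median log2 changes of 0.083 and -0.004. Mios, a GATOR2 subunit, fell by 0.67 at rest (SE 0.038, adjusted p = 1.03e-16) and rose by 0.25 ± 0.038 with stimulation under 1 % O2 (adjusted p = 3.23e-06). Slc38a9, the lysosomal arginine sensor, rose by 0.47 ± 0.055 at rest (adjusted p = 4.42e-09), and Castor2, a relative of the cytosolic arginine sensor, rose by 0.43 ± 0.042 with stimulation under 1 % O2 (adjusted p = 5.07e-10). Of 15 genes for AMPK subunits, upstream kinases and substrates, 6 rose and 5 fell with O2 at rest, and 1 rose and 6 fell with stimulation under 5 % O2, with median log2 changes of 0.01 and -0.035. Prkag3, the muscle γ3 subunit, fell by 0.28 with stimulation under 5 % O2 (SE 0.037, adjusted p = 3.61e-07) and by 0.50 under 1 % O2 (SE 0.037, adjusted p = 7.05e-13).

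The list for ATF4 and the integrated stress response moved in one direction per factor. Of 11 genes tested, 7 fell and none rose with O2 at rest, 10 rose and none fell with stimulation under 5 % O2, 10 fell and none rose with O2 in stimulated myotubes, and 7 rose and none fell with stimulation under 1 % O2. Median log2 changes of the list were -0.361, 0.475, -0.477 and 0.363. In the same order, 30.5 % of all genes fell, 9.44 % rose, 28.4 % fell and 11.5 % rose. Atf4, the factor itself, had a mean of 9603.9 ± 597 in 5 % CTRL, 6395.4 ± 517 in 1 % CTRL and 12375.1 ± 399 in 5 % STIM, against 8215.7 ± 475 in 1 % STIM. Trib3, a pseudokinase target of ATF4, rose 3.35-fold with stimulation under 5 % O2 (adjusted p = 1.64e-19). The log2 fold changes of Eif4ebp1, which is not in the list, had the same signs in the 4 comparisons (its change with stimulation under 1 % O2 did not pass), and Sesn2 had the list's sign for stimulation and not for O2. Another list member, Ddit3, has 2 gene IDs under its symbol and was left out.

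Of 12 p53 targets, 4 rose and 4 fell with O2 at rest, 4 rose and 3 fell with stimulation under 5 % O2, and 6 rose and 1 fell with stimulation under 1 % O2. With O2 at rest, Gadd45a fell by 0.77 (SE 0.093, adjusted p = 2.67e-07 by limma) and Plk2 by 0.50 (SE 0.038, adjusted p = 1.94e-13 by limma). Zmat3 rose by 0.69 ± 0.041 in that comparison (adjusted p = 2.46e-16 by limma). Trp53inp1, a stress protein of autophagy and apoptosis, rose by 1.12 ± 0.047 and 1.48 ± 0.047 with stimulation under 5 % and 1 % O2 (adjusted p = 3.77e-19 and 1.66e-22), with an interaction of 0.36 ± 0.066 (adjusted p = 0.000309). Btg2, an antiproliferative gene, had an interaction of 0.71 ± 0.087 (adjusted p = 4.35e-07). Of 12 FoxO targets, 5 rose and 3 fell with O2 at rest and 9 rose and 2 fell with stimulation under 5 % O2. The ubiquitin ligases of muscle atrophy Fbxo32 and Trim63 rose by 1.18 ± 0.045 and 0.81 ± 0.035 with stimulation under 5 % O2 (adjusted p = 3.77e-19 and 8.12e-19), and Depp1, an autophagy regulator, fell by 1.98 (SE 0.089, adjusted p = 1.55e-18). No list was tested as a set.

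**Figure D5:**
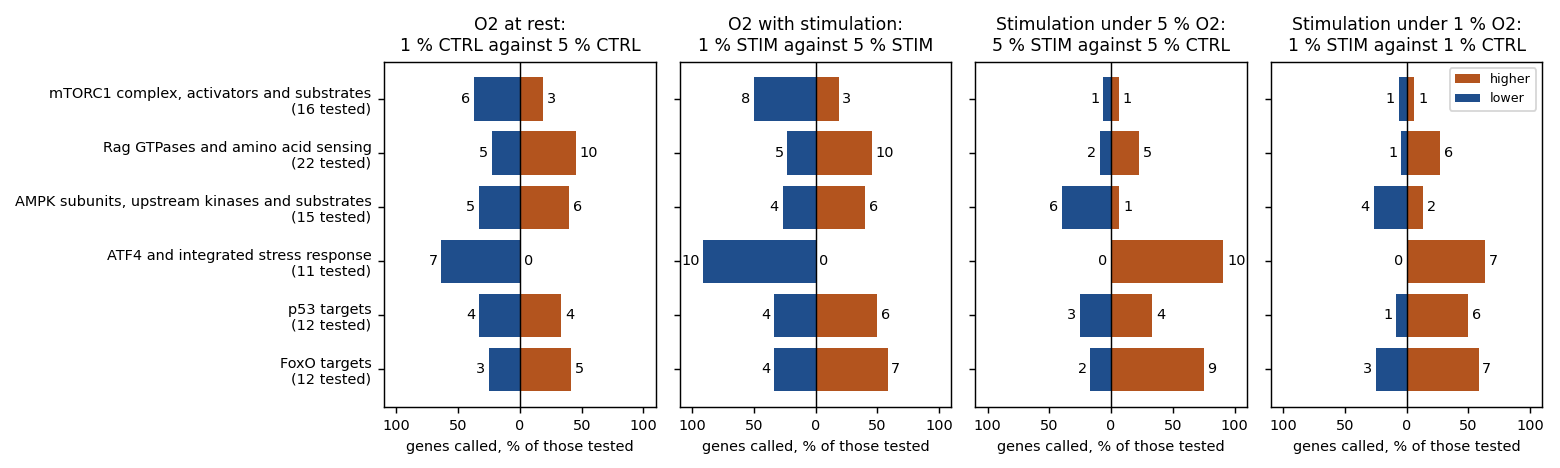
Genes of 6 lists that passed the test, as percent of those tested (horizontal axis, higher to the right and lower to the left, with the number of genes at each bar) in the 4 comparisons along one factor. In the ATF4 list the counts lie on one side in each comparison, with 7 lower at rest and 10 higher with stimulation under 5 % O2. Of all genes, 30.5 % were lower and 9.44 % higher in these comparisons, respectively.

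Over the 24 libraries, which share the 4 groups, the genes whose log2 values followed each member most closely among 10794 genes averaging 100 or more (10795 for Ddit4l, whose own mean is lower) are given here as a description. Ddit4 was followed by Sap30 (Pearson r of 0.971) and Gpr146 (0.965), Sesn1 by Arrdc3 (0.974) and Pik3ip1 (0.973), Sesn2 by Tmem140 (0.957) and Pde4b (0.957), and Eif4ebp1 by Slc3a2 (0.943) and Ftl1 (0.94). Deptor was followed by Otud4 (0.959) and Il6st (0.959), Tsc1 by Med13l (0.914) and Jmjd1c (0.897), and Tsc2 by Sbf1 (0.815) and Fbln2 (0.811). Lower values were found for Sesn3 with Pik3ca (0.761) and Xrn1 (0.758) and for Prkaa2 with N4bp2 (0.725) and Acer3 (0.696). Ddit4l was followed by Atcayos (0.945) and Stard7 (0.942). Among the members, r was 0.89 for Ddit4l and Sesn1, 0.85 for Sesn1 and Sesn2, 0.70 for Ddit4 and Ddit4l, and -0.84 for Ddit4 and Deptor.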

How the data were processed

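RNA was sequenced from 24 libraries (stranded mRNA kit, single-end reads). Per the submitters' processing notes, tools were FastQC 0.11.7, STAR 2.5.4b and RSEM 1.3.0 with GRCm38. The authors deposited a signal per gene, gene counts divided by DESeq2 size factors, and 100 % of values gave whole reads within 0.001. Counting is not stated to use strand. A second table holds only the authors' own comparisons (log2 fold changes, F, p and calls) and was not used. Gene positions came from GENCODE M21, which named 55227 of the 55487 IDs (99.5 %).

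Groups followed the labels. The test was limma 3.58.1 (R 4.3.3) on log2(normalized count + 1), with 1 fit of 4 groups, trend and robust moderation, Benjamini-Hochberg adjustment over 14541 genes and a threshold of 0.05. A fold change is therefore on the log2(value + 1) scale, which understates changes of low genes. In simulated data of 14541 genes, log2 changes of 0.25, 0.5 and 1 were given to 67, 67 and 66 genes in 1 % CTRL. The test called 43.3 %, 76.1 % and 98.5 % of these, and 0.0558 % of the 14341 unchanged genes. In the data 59.9 % of genes were called in 1 % CTRL against 5 % CTRL. The adjustment depends on how many genes change, so the simulated rates do not give the power in these data. Shares were tested by exact permutation. Alternatives were another pseudocount, no filter, other scalings, a replicate block, the groups compared alone, a length covariate, limma voom, edgeR 4.0.16 and DESeq2 1.42.0 on the recovered reads, a stricter threshold and each library left out. Leaving out the 2 libraries of steepest length slope was added after seeing the data. Replicate libraries differed by more than sampling noise (chi-square per gene of 2.54 to 21.3).

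The 10 genes and the lists were chosen with earlier results of these data known. Named list genes were up to 3 per list and comparison with the largest called change and a mean of at least 100, and for each member the 2 genes of highest correlation. Sequences came from RefSeq (GRCm38.p6).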

Additional observations from a re-analysis of the deposited data

Results flagged for a closer look

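In 40 sets of 6 libraries (10 genes in 4 groups), 8 had a highest or lowest library farther from its nearest neighbour than Dixon's 95 % critical value allows, where chance gives about 1 in 20. Of these, 4 were in 1 % CTRL replicate 1, with a normalized count of 844 for Ddit4, 563 for Sesn2, 1156.7 for Sesn3 and 602 for Eif4ebp1. In 5 % STIM, replicate 1 stood apart for Ddit4 (472) and Sesn3 (1227.6), and replicate 6 for Sesn2 (1061.8). In 1 % STIM, replicate 3 stood apart for Sesn1 (1628.9).

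The response to stimulation differed between 1 % and 5 % O2 in 4 genes by the interaction term of limma, with a log2 difference of -1.01 for Ddit4, 0.82 for Ddit4l, 0.36 for Sesn1 and -0.31 for Eif4ebp1. Without 1 % CTRL replicate 1, the library farthest from its group for Ddit4, the Ddit4 difference was -1.14 (adjusted p = 2.21e-05 by limma), and with each of the 24 libraries left out in turn it ranged from -1.14 to -0.91 and stayed past the threshold.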

How the results depend on the processing

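At an adjusted p under 0.01 in place of 0.05, 1944 genes (3115 at 0.05) were called with stimulation under 5 % O2 and 830 (1645) for the interaction, and no other alternative moved a count of called genes or members by over 1.5 times. With libraries rescaled to the same total, log2 changes that did not pass in the main analysis turned sign for Sesn3 (0.042) and Tsc2 (0.044) with O2 at rest, Tsc2 with stimulation under 5 % O2 (0.013), Tsc1 (0.021), Tsc2 (0.02) and Prkaa2 (0.028) with O2 in stimulated myotubes, Tsc1 (0.099), Tsc2 (0.033), Prkaa2 (0.075) and Eif4ebp1 (0.00035) in 1 % STIM against 5 % CTRL, and Tsc2 in 5 % STIM against 1 % CTRL (-0.031). TMM factors, edgeR and limma voom gave 0.018, 0.019 and 0.018 for Tsc1 in 1 % STIM against 5 % CTRL and -0.0092, -0.0089 and -0.0092 for Tsc2 in 5 % STIM against 1 % CTRL, and the length covariate gave -0.0014 for Sesn3 with O2 in stimulated myotubes. With 1 library left out, signs turned within -0.021 to 0.012 for Tsc1, and -0.055 to 0.014 for Prkaa2, in 1 % STIM against 5 % CTRL, within -0.013 to 0.056 for Prkaa2 with stimulation under 5 % O2 and within -0.027 to 0.0068 for the Tsc2 interaction. The cause was not tested.

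Of the log2 ratios of shares, with 1 library left out those of Ddit4l with stimulation under 5 % O2 ranged from -0.6 to -0.37, of Sesn2 with O2 at rest from -0.013 to 0.1 and with stimulation under 1 % O2 from -0.03 to 0.079, of Tsc1 with O2 at rest from -0.16 to -0.12 and with O2 in stimulated myotubes from -0.01 to 0.018, of Prkaa2 with O2 at rest from 0.089 to 0.14, and of Eif4ebp1 with O2 at rest from -0.28 to -0.16 and with stimulation under 1 % O2 from 0.13 to 0.24. Without the 2 libraries of steepest length slope, Tsc1 with O2 in stimulated myotubes gave -0.0043, Prkaa2 with O2 at rest 0.11 (adjusted p = 0.0825 by the exact test) and Eif4ebp1 with stimulation under 1 % O2 0.16 (adjusted p = 0.0476 by the exact test). Without division by exon length, Sesn2 with stimulation under 1 % O2 gave 0.28.

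Same-numbered libraries did not deviate together (correlations from -0.15 to 0.15, and 1 or 2 of 6 libraries correlated best with their own number). No pairing by number was seen, but low correlations cannot exclude that same-numbered samples were handled together. With a replicate block, 7, 4, 6, 7 and 4 members were called in the 4 comparisons along one factor and the interaction, and 5 and 8 in the other 2. Under the block, none of the 16 called shares passed, since sign flips of 6 pairs allow no p below 0.03125 and no adjusted p here was below 0.0536. The ratios cannot move under the block, since the mean of the paired differences equals the difference of the group means. These ratios were -1.68, -0.48 and 1.35 for Ddit4l, 0.48 and -0.41 for Sesn2, -0.38, -0.68, -0.43 and -0.73 for Sesn3, -0.14 and 0.2 for Tsc1, 0.12, 0.25 and -0.17 for Prkaa2 and 0.48 and -0.51 for Eif4ebp1. The 95 % intervals given above describe the precision of each log2 change and are not limits of detection. Deptor, for example, was called with stimulation under 1 % O2 at 0.098 (95 % interval 0.04 to 0.16). A gene without a call may still have changed by an amount within its interval. The smallest change detectable at this depth and number of libraries was not tested.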
